A study of Mus musculus with 40 samples.

Results

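Expression of 8 intermediate filament genes, Krt8, Krt18, Krt19, Des, Vim, Nes, Synm and Sync, was followed in mouse muscle, the extensor digitorum longus (EDL) of the hindlimb. They were taken by symbol from the 22844 genes of the deposited tables, and all 8 passed the filter on low counts, which asked for 1 CPM (here counts scaled to the library total) in 5 libraries. Krt8 and Krt18 passed it only through 9mTSCmKO and 9mTSCmKO+RM: among the libraries of the other 6 groups 0 reached 1 CPM for Krt8 and 4, all of 3mTSCmKO+RM, for Krt18. Krt8 and Krt18 were chosen by their values in 9mTSCmKO against 9mCON and in 9mTSCmKO+RM, and the other 6 were added by name, with results of these data known. Values of Krt8 and Krt18 in comparisons that include 9mTSCmKO or 9mTSCmKO+RM are therefore a description, and nothing is read from their calls there.

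Intermediate filaments are ropes of coiled-coil proteins that give cells mechanical strength. Keratins assemble only as partners of one acidic and one basic chain: Krt8 is the basic and Krt18 the acidic chain of simple epithelia such as liver and gut, and Krt19 is a second acidic chain. In muscle fibers desmin, encoded by Des, is the main filament protein and ties the Z-discs of neighbouring myofibrils to each other, to the plasma membrane and to nuclei. Synemin (Synm) and nestin (Nes) are large chains that need a partner such as desmin or vimentin (Vim), syncoilin (Sync) binds desmin and the dystrophin-associated complex, vimentin is typical of fibroblasts and other mesenchymal cells, and nestin is known from immature and regenerating fibers and from the neuromuscular and myotendinous junctions.

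Muscle fibers of TSCmKO mice have no Tsc1, which normally restrains the kinase complex mTORC1, and the comparisons ask what sustained mTORC1 activity does to muscle transcripts at different ages and which changes respond to rapamycin (RM), an mTORC1 inhibitor. There were 8 groups of 5 libraries, named 3mCON, 3mCON+RM, 3mTSCmKO, 3mTSCmKO+RM, 9mCON, 9mCON+RM, 9mTSCmKO and 9mTSCmKO+RM, where 3m and 9m stand for mice 3 and 9 months old. CON mice were homozygous for the floxed Tsc1 allele (Tsc1fl/fl, strain Tsc1tm1Djk/J) and had no Cre recombinase, TSCmKO mice carried the same floxed alleles and the muscle knockout, and every mouse had received intraperitoneal vehicle or, where the name ends in +RM, rapamycin at 4 mg per kg for 3 days by the labels. The promoter that drives Cre and the sex of the mice are not given in the sources used here. By the study's text every muscle sample came from its own animal.

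Library totals ran from 8883870 to 35224669 counts. Tsc1 itself lay between 17.7 and 35.8 CPM (counts scaled to the library total, with TMM factors) in the 20 TSCmKO libraries and between 51.3 and 134 CPM in the 20 CON libraries. Its log2 fold change was -1.99 (SE 0.172) at 3 months and -1.55 (SE 0.171) at 9 months (edgeR quasi-likelihood test with Benjamini-Hochberg adjustment, adjusted p = 2.49e-11 and 2.33e-09). Whole EDL was extracted, which also holds fibroblasts, vessels, nerve and immune cells. In such bulk samples fewer cells of a type and less RNA per cell cannot be told apart. All muscle fiber markers examined were detected in every group. By the labels the mean insert was 175 to 239 nt long in the young and 223 to 308 nt in the older libraries, so that age and library preparation cannot be told apart. Unless said otherwise, log2 fold changes, their standard errors and adjusted p-values come from that edgeR test, with a call at an adjusted p under 0.05.

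Krt8 and Krt18 are neighbours on chromosome 15 (GRCm38), Krt8 at chr15:101996698-102004482 on the minus strand and Krt18 at chr15:102028180-102032027 on the plus strand, with 23.7 kb between them. Krt19 (chr11:100140810-100148665, minus), Des (chr1:75360329-75368579, plus), Vim (chr2:13573927-13582826, plus), Nes (chr3:87971078-87980451, plus), Synm (chr7:67730160-67759742, minus) and Sync (chr4:129287617-129308559, plus) lie on other chromosomes. Krt8, Des, Synm and Sync overlap genes on the opposite strand in GENCODE M21, which strand-specific counting keeps apart. At most 1.22% of a member's 31-base words occur in another gene, and the share was 1.19% for Krt8 and 0 for Krt18 and Nes, so that few reads could be shared between keratins.

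The promoter windows of the neighbouring keratin genes and of Des are shown because the keratin genes were high together in 9mTSCmKO while Des was high in every group. Each runs from 250 bases before to 50 bases after the start that RefSeq gives on GRCm38.p6, 5′ to 3′ on the gene's own strand, with matches to the motifs searched in capitals. The windows are chr15:102004293-102004592 (minus strand) for Krt8, chr15:102027966-102028265 (plus) for Krt18 and chr1:75360042-75360341 (plus) for Des.
Krt8: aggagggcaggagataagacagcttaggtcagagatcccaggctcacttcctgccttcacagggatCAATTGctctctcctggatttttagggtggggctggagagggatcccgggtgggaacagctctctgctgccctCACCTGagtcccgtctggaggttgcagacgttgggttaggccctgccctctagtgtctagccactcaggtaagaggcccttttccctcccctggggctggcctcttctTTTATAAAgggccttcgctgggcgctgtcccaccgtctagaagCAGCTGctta
Krt18: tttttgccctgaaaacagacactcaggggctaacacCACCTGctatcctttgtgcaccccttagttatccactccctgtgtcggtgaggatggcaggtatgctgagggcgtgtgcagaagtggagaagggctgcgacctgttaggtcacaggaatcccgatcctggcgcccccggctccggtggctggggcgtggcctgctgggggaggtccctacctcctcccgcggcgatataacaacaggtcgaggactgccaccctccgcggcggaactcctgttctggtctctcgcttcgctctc
Des: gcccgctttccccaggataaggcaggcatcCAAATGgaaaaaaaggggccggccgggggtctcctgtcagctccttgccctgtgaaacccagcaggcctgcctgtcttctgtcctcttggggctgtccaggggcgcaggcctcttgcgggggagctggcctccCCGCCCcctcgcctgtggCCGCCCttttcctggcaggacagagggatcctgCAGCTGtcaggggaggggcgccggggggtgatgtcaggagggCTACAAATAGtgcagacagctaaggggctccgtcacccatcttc

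The motifs were searched on both strands in the 32851 promoter windows of the mouse table. A TATA box was searched as TATAAA and matched in 13.6% of the windows. The MEF2 site of muscle genes was searched in a loose form, CTANNNNTAG, with any base at N, and matched in 3.69%. An E-box, which myogenic factors of the MyoD family can bind, was searched as CANNTG and matched in 72.3%. An AP-1 site, TGANTCA, matched in 7.81% of the windows. A GC box, GGGCGG, matched in 35.7%. Counted from 1 at the start, with -1 the base before it, the Krt8 window held TATAAA at -1, overlapped by a match on the other strand at -3, and E-boxes at -184, -111 and 41. The Krt18 window held 1 E-box at -214 and no match to the other 4 motifs. In the Des window CTACAAATAG matched the loose MEF2 letters at position 7, with a C among the free bases. Beside it were E-boxes at -220 and -36 and GC boxes at -87 and -69 on the other strand. Positions count from the RefSeq starts, which differ from the GENCODE starts of the gene coordinates given above. Among the other members with a window, Vim had 1 TATAAA, Nes 2 GC boxes, Synm 1 E-box, and Sync 2 E-boxes and 3 GC boxes. Such matches are letters in a window and were not tested for binding.

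Levels of different genes were compared as TPM, which divides by transcript length. Des stood far above the others in all 8 groups, with a mean of 2492 ± 248.9 TPM in 9mCON (SD, n = 5), and supplied 72.4% to 92.3% of the summed TPM of the 8 genes in each library. In 3mCON the order of mean TPM was Des, Synm, Vim, Sync, Nes, Krt19, Krt18 and Krt8, and no neighbours in that order overlapped. In 9mCON the order was the same, with overlap between Synm and Vim and between Sync and Nes.

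The order differed in 9mTSCmKO. Mean TPM there was 3564 ± 230 for Des, 345 ± 123 for Synm, 166 ± 47.3 for Vim, 72.8 ± 23.7 for Nes, 53.1 ± 15.5 for Sync, 25.3 ± 11.2 for Krt18, 15.8 ± 8.36 for Krt8 and 0.807 ± 0.702 for Krt19. Des did not overlap with Synm, nor Krt8 with Krt19, whereas each pair of neighbours from Synm down to Krt8 overlapped. Krt8 and Krt18 together made up 0.631% to 1.76% of the summed filament TPM in the 5 libraries of 9mTSCmKO and 0.154% to 0.559% in 9mTSCmKO+RM, but at most 0.0694% in any library of the other 6 groups. The keratin pair thus stayed a small fraction of the filament transcripts even where it was highest.

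**Figure D1:**
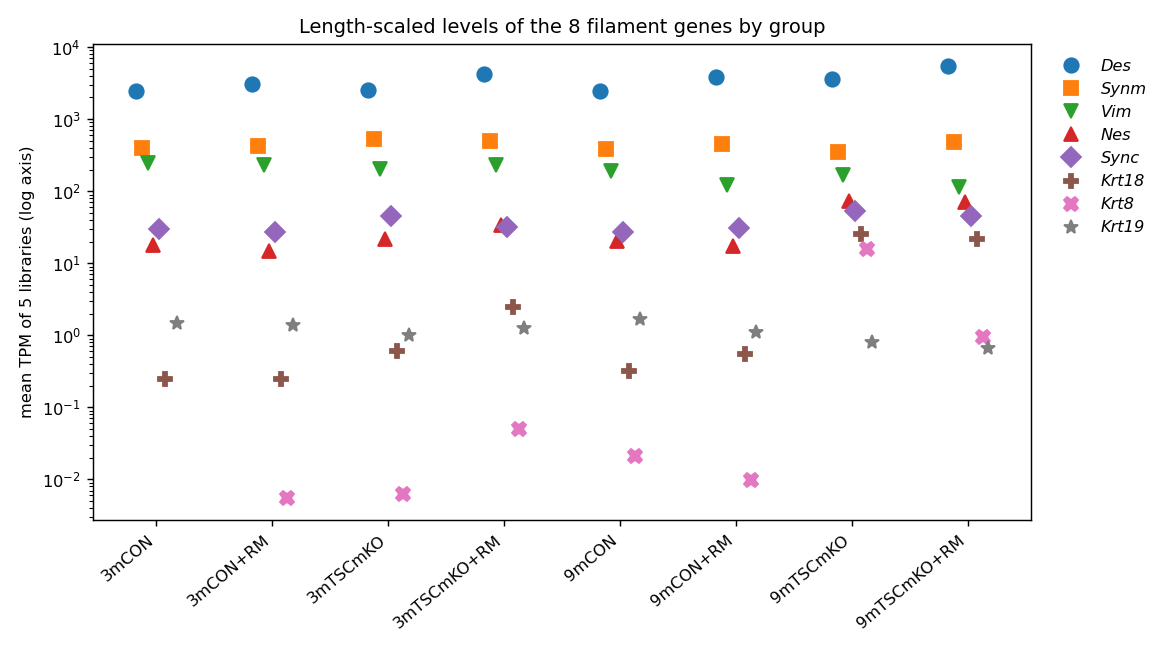
Mean TPM over 5 libraries (y axis, log scale) of the 8 filament genes, 1 symbol each, in the 8 groups along the x axis. Des lies above all others in every group, Krt18 and Krt8 reach 25.3 and 15.8 TPM in 9mTSCmKO, and Krt8 is not drawn in 3mCON, where its mean was 0.

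Calls over the members were read against the share of all 13543 tested genes called in the same comparison. In 9mTSCmKO against 9mCON 37.9% of tested genes were called, and 6 of the 8 members were: Krt8, Krt18, Des, Nes and Sync higher and Krt19 lower. This comparison chose the keratin pair, so nothing is read from that count. In 3mTSCmKO against 3mCON 19.8% of genes were called and 1 member, Sync. Across age, 37.4% of genes were called in 9mTSCmKO against 3mTSCmKO with 5 members, of which Krt8, Krt18, Des and Nes were higher and Synm lower, the keratin pair again being members chosen on 9mTSCmKO, and 1.02% in 9mCON against 3mCON with 0 members by edgeR, by DESeq2, by limma or at an unadjusted p under 0.05. The genotype by age term, which asks whether the difference between TSCmKO and CON under vehicle is larger at 9 months, called 4.94% of genes and 2 members, Nes and Krt18, of which Krt18 was chosen on one of the groups. Krt8 held at most 2 counts in sum in each of 3 of the 4 groups, so that its absence from this count says nothing.

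After rapamycin, 32.6% of genes and 4 members were called in 9mTSCmKO+RM against 9mTSCmKO, with Des and Synm higher and Krt8 and Vim lower, the Krt8 call being one the choice of members fixed. At 3 months the comparison of 3mTSCmKO+RM with 3mTSCmKO called 23.6% of genes and 4 members, with Krt18, Des and Nes higher and Sync lower. Krt18 entered this count only because the 9-month knockouts that chose it let it pass the filter. In controls 11.8% of genes and 2 members were called at 9 months (Des higher, Vim lower), and 0.679% of genes and 0 members at 3 months, where 1 member, Des, was under an unadjusted p of 0.05 and DESeq2 and limma also called 0. Set against vehicle controls, 9mTSCmKO+RM had 7 members called beside 31.9% of genes, with 5 higher and 2 lower, but Krt8 and Krt18 among the 5 were chosen on these groups, so nothing is read from that count. In 3mTSCmKO+RM 3 were higher beside 16.7%, again with Krt18 among them. The rapamycin by genotype terms called 4.87% of genes at 9 months and 3.45% at 3 months, and 0 members in each with edgeR. At an unadjusted p under 0.05 these were 0 and 2 members, DESeq2 called 0 at both ages, and limma on TPM called 1 at 9 months and 0 at 3 months. Many of these comparisons share a group, so their counts are not independent.

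Krt8, the basic keratin of simple epithelia, was close to undetected outside the 9-month knockout. The 5 libraries of 9mTSCmKO held 12.1, 13.5, 35.0, 10.4 and 13.1 CPM, from 233, 230, 627, 181 and 300 counts. In 9mTSCmKO+RM they held 0.156, 0.864, 1.03, 2.13 and 0.548 CPM, from 2, 15, 19, 31 and 9 counts. All libraries of 9mTSCmKO lay above all libraries of 9mTSCmKO+RM. Among the 30 libraries of the other 6 groups the highest value was 0.157 CPM, from 4 counts in 1 library of 3mTSCmKO+RM, every other one of them had at most 1 count, and the 5 libraries of 3mCON had 0. A sum of 3 counts over the group would be 0.0311 CPM in 3mCON and 0.0375 CPM in 9mCON, which is the limit that counting sets there.

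The mean of 9mTSCmKO was 16.8 ± 10.2 CPM (SD, n = 5), and 12.3 ± 1.37 CPM without replicate 3. Since controls held so few counts, ratios were formed from counts summed over each group, with exact 95% intervals that cover counting error only. Krt8 was 719 times as high in 9mTSCmKO as in 9mCON (interval 199 to 5939, 1571 against 2 counts). Against 3mTSCmKO, with 1 count, the ratio was 1907 (342 to 75371). The mean in 9mTSCmKO+RM, 0.947 ± 0.743 CPM, was 5.63% of that in 9mTSCmKO, and the ratio of summed counts was 0.0522 (0.0409 to 0.0657). Rapamycin-treated knockouts still held 37.5 times (10.0 to 315, 76 against 2 counts) the level of 9mCON, which is a description, since the values of these groups chose the gene.

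Krt18, the acidic partner of Krt8, was high in both 9-month knockout groups. It measured 17.98, 19.8, 36.4, 11.6 and 12.6 CPM in 9mTSCmKO and 8.21, 17.96, 14.2, 25.7 and 16.4 CPM in 9mTSCmKO+RM. The groups overlapped almost fully, with means of 19.7 ± 9.98 and 16.5 ± 6.34 CPM (15.5 ± 4.00 CPM in 9mTSCmKO without replicate 3), and the log2 fold change with rapamycin was -0.25. It was 0.09 without replicate 3 of 9mTSCmKO. In 9mCON the values were 0.472, 0.0754, 0.162, 0.273 and 0.258 CPM, so that the log2 fold change in 9mTSCmKO was 6.21. Both 9-month knockout groups lay above all 30 libraries of the other groups.

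At 3 months Krt18 was low but not alike in all groups. It measured 0.224, 0.364, 0.124, 0.0595 and 0.169 CPM in 3mCON, and 0.592, 0.457, 0.359, 0.352 and 0.575 CPM in 3mTSCmKO. The difference between these groups did not pass the test (log2 fold change 1.51, SE 0.573, adjusted p = 0.0573), though it did with the compared groups alone (adjusted p = 0.0145), with DESeq2 (adjusted p = 0.0262), with limma at a pseudocount of 0.1 (adjusted p = 0.0475) and without 1 library of 3mCON, replicate 2. It did not pass with no filter on low counts (1.53, adjusted p = 0.0789), and over the alternatives the adjusted p reached 0.340. In 3mTSCmKO+RM the values were 0.509, 1.68, 2.59, 2.31 and 2.07 CPM. All but replicate 1 of that group lay above every library of 3mTSCmKO, and the log2 fold change with rapamycin in the young knockout was 1.97 (SE 0.388, adjusted p = 0.000192). Krt18 was among the tested genes only through the 9-month knockouts that chose it, and with no filter on low counts the value was 1.97 (adjusted p = 0.000228). In controls rapamycin gave a log2 fold change of 0.35 in the young (adjusted p = 0.967) and 0.82 in the older ones (adjusted p = 0.403), and the rapamycin by genotype term at 3 months was 1.62 (SE 0.827, adjusted p = 0.357), so that a difference in response between genotypes was not shown. Against vehicle controls of the same age the log2 fold change in the young rapamycin-treated knockouts was 3.48 (SE 0.481, adjusted p = 1.39e-06), or 3.49 with no filter (adjusted p = 1.09e-06). In the older ones the log2 fold change was 5.95, given as a description, since these values chose the gene.

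The ratio of Krt8 to Krt18 separated the treated from the untreated old knockouts. In TPM it was 0.494, 0.501, 0.705, 0.658 and 0.764 in the libraries of 9mTSCmKO, and between 0.0140 and 0.0610 in those of 9mTSCmKO+RM. The means were 0.624 ± 0.122 and 0.0376 ± 0.0196 (SD, n = 5), and the groups did not overlap. Krt8 was lower in every treated library, whereas Krt18 covered about the same range in both groups. The ratio contains Krt8, for which the pair was chosen, and was not tested.

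**Figure D2:**
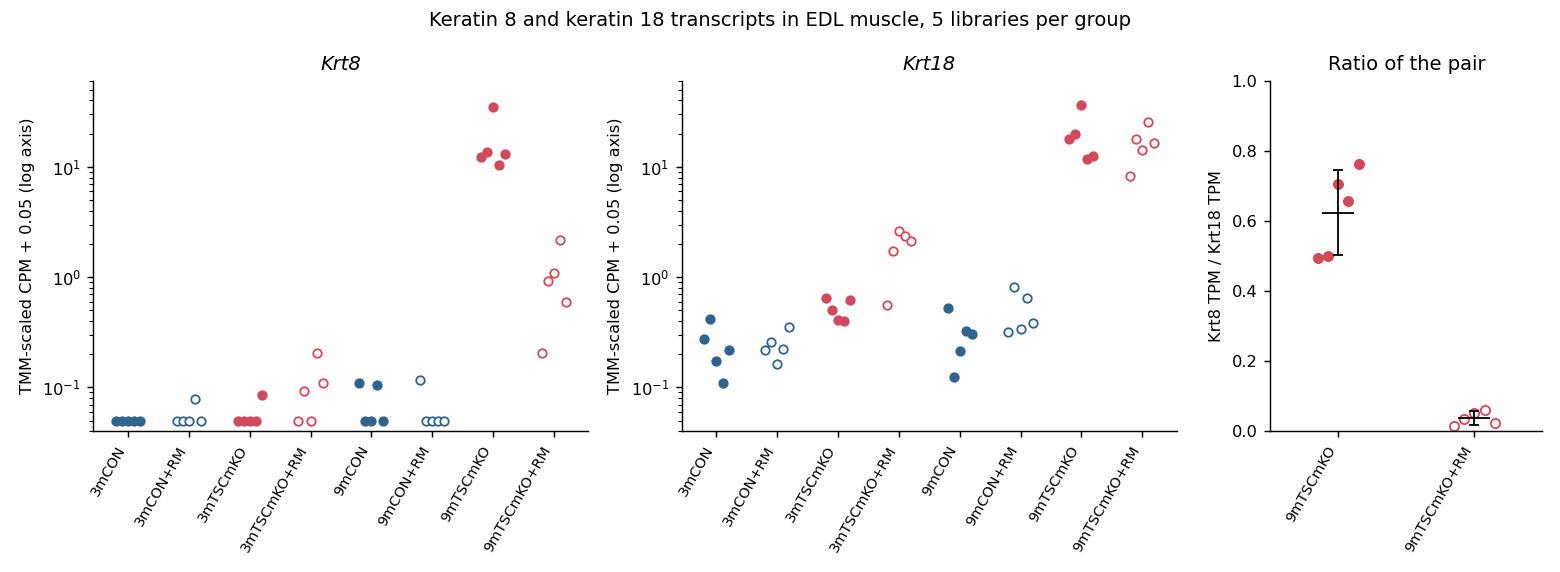
Krt8 (left) and Krt18 (middle) in each of the 40 libraries by group, as CPM + 0.05 on a log y axis, and the ratio of their TPM in the 9-month knockouts (right, with mean and SD of 5 libraries), where open points are rapamycin-treated libraries and red points are knockouts. Krt8 lies at 10.4 to 35.0 CPM in 9mTSCmKO and at or below 2.13 CPM in 9mTSCmKO+RM, whereas Krt18 overlaps between those groups and is raised above 3mTSCmKO in 4 of 5 libraries of 3mTSCmKO+RM.

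None of the tested genes around the pair was called higher with it. Within 200 kb of the pair the table held 16 other genes, of which 7 were tested, and in 9mTSCmKO against 9mCON 0 of these were higher and 4 lower, with log2 fold changes from -1.50 to 0.22 (edgeR), beside 37.9% of all tested genes called. The 4 were Eif4b, Igfbp6, Zfp740 and Itgb7, named after their values were seen. Of those 16, 8 were other keratin genes, and the most abundant of them had 80 counts over all 40 libraries.

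Markers of epithelial cells, where Krt8 and Krt18 are normally expressed, were examined beside the pair, leaving Krt8, Krt18 and Krt19 out. Of 15 markers 12 were in the table and 3 were tested, and 2 of these, Krt7 and Dsg2, were called higher in 9mTSCmKO, beside 37.9% of all tested genes called in either direction. Dsg2 was not called without replicate 1 of 9mTSCmKO (log2 fold change 0.27, adjusted p = 0.450) or without replicate 5 of 9mCON (0.88, adjusted p = 0.0525). The third was Cdh1 (log2 fold change 0.03, adjusted p = 0.964), and the other 9 were too low to be tested. The summed level was 1.82 to 2.81 TPM in 9mCON, 1.67 to 6.62 TPM in 9mTSCmKO and 1.37 to 2.61 TPM in 9mTSCmKO+RM. In 9mTSCmKO the replicates held 6.62, 2.72, 1.67, 2.95 and 2.54 TPM, and replicate 3, the highest for Krt8 and Krt18, was the lowest of these. Cdh1, the adhesion molecule of epithelial junctions, was at 0.103 to 0.503 TPM in 9mCON and 0.0724 to 0.989 TPM in 9mTSCmKO. Krt14, the keratin of basal epidermis, was at 0 in every library of both groups. Cldn7, Esrp1 and Ovol1 were at 0 in every library of 9mCON but not in every library of 9mTSCmKO, and were too low to be tested. Epithelial markers were thus at a few TPM in all, below the mean of 25.3 TPM of Krt18 alone. Their part in the values of the pair was not tested.

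The table held 51 keratin genes, of which 33 never exceeded 3 counts in a library, 4 had none at all, and 7 were tested. Beside the 3 members these were Krt222, Krt80, Krt7 and Krt10. Krt222, a keratin-related gene without the usual full rod, rose from 2.34 ± 0.400 CPM in 9mCON to 13.4 ± 2.15 CPM in 9mTSCmKO (SD, n = 5, log2 fold change 2.51, adjusted p = 1.32e-11) and fell with rapamycin (log2 fold change -1.78, adjusted p = 3.93e-08). It did so at 3 months too, by 1.33 with the knockout (adjusted p = 9.29e-06) and by -1.63 with rapamycin (adjusted p = 2.62e-07), at an age when Krt8 had at most 1 count in any untreated library. In controls Krt222 was also lower after rapamycin, by -0.81 at 9 months (adjusted p = 0.0293) and by -1.14 at 3 months (adjusted p = 0.0101). The first of these calls was not made without replicate 1 of 9mCON (-0.70, adjusted p = 0.102) or replicate 3, 4 or 5 of 9mCON+RM, and the other not without replicate 3 of 3mCON (-0.97, adjusted p = 0.0647) or replicate 4 of 3mCON+RM. The rapamycin by genotype terms of Krt222 and Krt80 passed the test at neither age (adjusted p from 0.0770 to 0.765), so no difference in response between genotypes was shown. Krt80 rose at 9 months (log2 fold change 1.52, adjusted p = 1.58e-05) and was lower after rapamycin in the knockouts (-0.98, adjusted p = 0.00334) and in the 9-month controls (-1.26, adjusted p = 0.00391), and Krt7 rose (0.82, adjusted p = 0.00505). Krt10, the acidic keratin of upper epidermis, differed by -0.06 between genotypes at 9 months (adjusted p = 0.895) and was lower after rapamycin in the 9-month knockouts (-1.13, adjusted p = 0.00858). Its means were 1.51 CPM in 9mCON and 1.44 CPM in 9mCON+RM.

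Krt19, the other acidic keratin, was low in both untreated 9-month groups, at 0.0520 to 1.59 CPM. It measured 1.59, 0.754, 1.30, 1.36 and 1.19 CPM in 9mCON and 0.0520, 1.23, 0.670, 0.346 and 0.393 CPM in 9mTSCmKO. The groups overlapped, with replicate 1 of 9mTSCmKO the lowest and replicate 2 within the control range. The log2 fold change of -1.23 (SE 0.427, adjusted p = 0.0215) passed the test but not without replicate 1 (-0.92, adjusted p = 0.0662), replicate 4 (-1.12, adjusted p = 0.0522) or replicate 5 (-1.13, adjusted p = 0.0501) of 9mTSCmKO, nor with the compared groups alone (adjusted p = 0.128). In 9mTSCmKO+RM, at 0.217 to 0.731 CPM, Krt19 lay below every library of 9mCON (log2 fold change -1.47, SE 0.447, adjusted p = 0.0103). At 3 months the difference between genotypes was -0.52 (adjusted p = 0.418). Of 8 markers of Schwann cells 2 were lower and 0 higher in 9mTSCmKO, beside 37.9% of all tested genes called, so nothing is read from that count. Their summed level was 165 to 315 TPM in 9mCON, 104 to 253 TPM in 9mTSCmKO and 71.6 to 160 TPM in 9mTSCmKO+RM. Their part in the Krt19 values was not tested.

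Des, the gene of the main muscle filament, was higher in the 9-month knockout and higher still after rapamycin. It measured 3548, 3923, 3218, 3408 and 3764 CPM in 9mCON and 5380, 5020, 5689, 4692 and 4346 CPM in 9mTSCmKO, with no overlap (log2 fold change 0.49, SE 0.111, adjusted p = 0.000535). In 3mCON it measured 2880, 3104, 3493, 3370 and 2893 CPM, and in 3mTSCmKO 3608, 3822, 2763, 2953 and 3232 CPM. The young groups overlapped (log2 fold change 0.06, adjusted p = 0.770), and Des was higher in 9mTSCmKO than in 3mTSCmKO (0.62, adjusted p = 4.91e-05), but the genotype by age term of 0.44 (SE 0.157) did not pass the test (adjusted p = 0.101), though it did with DESeq2 (adjusted p = 0.0434) and limma (adjusted p = 0.0181).

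Des rose with rapamycin in 3 of the 4 pairs of groups. In 9mTSCmKO+RM it reached 8994, 6877, 7240, 7480 and 7475 CPM, all above the untreated knockouts (log2 fold change 0.60, adjusted p = 6.33e-05). In 3mTSCmKO+RM the values were 4758, 4982, 4891, 6172 and 5283 CPM, again with no overlap (0.67, adjusted p = 1.59e-05). The 9-month controls rose as well, to 7256, 5474, 5316, 4978 and 5468 CPM in 9mCON+RM (0.67, adjusted p = 9.75e-05). In 3mCON+RM, at 3567, 4144, 3837, 4430 and 3839 CPM, all libraries lay above those of 3mCON, but the log2 fold change of 0.33 did not pass the test (adjusted p = 0.207). The rapamycin by genotype terms were -0.07 for the older (adjusted p = 0.834) and 0.34 for the young groups (adjusted p = 0.286), so no difference in response between genotypes was shown. Set against 9mCON, Des in 9mTSCmKO+RM was higher by 1.09 (adjusted p = 1.02e-09), so that the treated knockouts lay further from 9mCON in Des than the untreated ones. This comparison with vehicle controls also holds the rise with rapamycin that controls showed.

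Nes, the gene of nestin, was higher in the 9-month knockout. Its values were 77.2, 49.5, 69.3, 56.2 and 75.8 CPM in 9mCON and 220, 310, 208, 248 and 139 CPM in 9mTSCmKO. The groups did not overlap, and the log2 fold change was 1.78 (SE 0.227, adjusted p = 6.20e-08). In 3mTSCmKO, at 67.9, 85.8, 58.2, 49.0 and 80.6 CPM against 46.6 to 59.4 CPM in 3mCON, the difference of 0.30 did not pass the test (adjusted p = 0.377). Between the ages the effect of the knockout differed (genotype by age 1.48, SE 0.314, adjusted p = 0.00371). Of 5 tested markers of regenerating or immature fibers, a state in which nestin is known, 2 were higher in 9mTSCmKO (Ncam1 and Myog) and 2 lower (Myod1 and Myh8), named after their values were seen, beside 37.9% of all tested genes called. Their part in the Nes values was not tested.

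With rapamycin Nes stayed at 128, 159, 278, 269 and 235 CPM in 9mTSCmKO+RM, within the range of the untreated knockouts save for replicate 1 (log2 fold change -0.07, adjusted p = 0.826). In 3mTSCmKO+RM it measured 78.2, 110, 107, 131 and 93.9 CPM, and the rise over 3mTSCmKO passed the test narrowly (0.61, SE 0.221, adjusted p = 0.0419). It did not pass without replicate 1, 3 or 4 of 3mTSCmKO or replicate 2, 3 or 4 of 3mTSCmKO+RM, with an adjusted p of up to 0.123 and a log2 fold change of 0.51 without replicate 4 of 3mTSCmKO+RM, nor in 5 of 9 other settings, among them a replicate block (0.59, adjusted p = 0.0528) and limma (adjusted p = 0.0710). In controls the differences were -0.28 in the young (adjusted p = 0.833) and -0.17 in the older ones (adjusted p = 0.709), and the rapamycin by genotype term at 3 months was 0.88 (adjusted p = 0.127, or 0.0271 with the compared groups alone). Nes was higher than in vehicle controls in both treated knockouts, by 0.91 in the young (adjusted p = 0.00318) and by 1.70 in the older (adjusted p = 2.29e-07).

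Sync, which encodes the desmin-binding protein syncoilin, was higher in the knockout at both ages. At 9 months it measured 22.4, 23.8, 34.9, 38.7 and 41.1 CPM in 9mCON and 45.1, 72.3, 44.5, 74.4 and 62.5 CPM in 9mTSCmKO (log2 fold change 0.89, SE 0.161, adjusted p = 2.75e-05). At 3 months it lay at 28.9 to 37.7 CPM in 3mCON and at 47.4, 64.0, 50.7, 45.4 and 58.2 CPM in 3mTSCmKO (0.65, SE 0.160, adjusted p = 0.00281). Neither pair overlapped, and the genotype by age term was 0.25 (adjusted p = 0.583).

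In the young knockout Sync fell with rapamycin to 31.4 to 38.1 CPM, below all untreated knockouts (log2 fold change -0.59, SE 0.159, adjusted p = 0.00544). The treated young knockouts then differed from 3mCON by 0.06 (adjusted p = 0.859). In 9mTSCmKO+RM the values of 37.1, 55.2, 62.6, 53.0 and 49.1 CPM overlapped with those of 9mTSCmKO (-0.22, adjusted p = 0.308) and were higher than in 9mCON (0.68, adjusted p = 0.00120). The call at 3 months was not made by limma on TPM (-0.52, adjusted p = 0.0592), and the rapamycin by genotype term there was -0.44 (adjusted p = 0.366, or 0.0486 with the compared groups alone).

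Synm, the gene of synemin, which links desmin filaments to costameres, was the member with the second-highest level. At 3 months it measured 1252, 1235, 1246, 1210 and 999.9 CPM in 3mCON and 1697, 1839, 1634, 1269 and 1769 CPM in 3mTSCmKO. These groups did not overlap, yet the log2 fold change of 0.47 did not pass the test (adjusted p = 0.0553). It passed with DESeq2 (adjusted p = 0.0408), with the compared groups alone (adjusted p = 0.00806) and without replicate 4 of 3mTSCmKO (0.54, adjusted p = 0.0344). At 9 months 9mCON held 866, 814, 1399, 1362 and 1484 CPM and 9mTSCmKO 936, 1211, 496, 1198 and 1313 CPM (-0.20, adjusted p = 0.380). Replicate 3 of 9mTSCmKO, highest for Krt8 and Krt18, was lowest for Synm.

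Synm was lower in 9mTSCmKO than in 3mTSCmKO (log2 fold change -0.67, SE 0.176, adjusted p = 0.00291), a call not made when insert size entered the fit (-0.47, adjusted p = 0.184). The genotype by age term was -0.67 (SE 0.247, adjusted p = 0.114). With rapamycin the 9-month knockout reached 1058, 1647, 1506, 1624 and 1339 CPM (0.48, SE 0.175, adjusted p = 0.0334). That call was not made without replicate 3 of 9mTSCmKO (0.30, adjusted p = 0.143), nor without its replicate 1 or without replicate 2, 3 or 4 of 9mTSCmKO+RM, nor with the compared groups alone (adjusted p = 0.172) or limma (adjusted p = 0.0661). Against 9mCON the treated knockouts differed by 0.28 (adjusted p = 0.240).

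Vim, the filament gene of mesenchymal cells, passed no test between untreated genotypes. It measured 192, 175, 137, 153 and 205 CPM in 9mCON and 213, 133, 181, 82.0 and 127 CPM in 9mTSCmKO (log2 fold change -0.23, adjusted p = 0.373), and the difference at 3 months was -0.28 (adjusted p = 0.353). After rapamycin 9mCON+RM held 123, 79.5, 169, 108 and 91.97 CPM and 9mTSCmKO+RM 89.9, 75.9, 119, 81.3 and 122 CPM. Both treated 9-month groups overlapped with their vehicle groups, and both falls were -0.59 (SE 0.197), with an adjusted p of 0.0186 in the knockouts and 0.0419 in the controls.

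Both Vim calls lay near the threshold. In the knockouts the call was not made without replicate 1 (-0.43, adjusted p = 0.0988) or 3 of 9mTSCmKO or replicate 2 or 4 of 9mTSCmKO+RM, nor with the compared groups alone (-0.60, adjusted p = 0.0779) or limma (-0.52, adjusted p = 0.0520). In the controls it was not made without replicate 1, 2 or 5 of 9mCON or replicate 1, 2, 4 or 5 of 9mCON+RM, with log2 fold changes from -0.61 to -0.49 and an adjusted p of up to 0.143, nor with the compared groups alone (-0.59, adjusted p = 0.103) or without the filter (-0.56, adjusted p = 0.0675). The difference between 9mTSCmKO+RM and 9mCON, -0.82 (adjusted p = 0.00133), passed in every such fit. At 3 months rapamycin gave 0.19 in the knockout (adjusted p = 0.541).

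Markers of fibroblasts and macrophages were examined beside Vim. In 9mCON+RM against 9mCON 7 of 8 fibroblast markers were lower and 0 higher (median log2 fold change -1.38), and 6 of 8 macrophage markers were lower (median -1.53), beside 11.8% of all tested genes called. Summed fibroblast markers were at 744 to 1391 TPM in 9mCON, 168 to 576 TPM in 9mCON+RM, 327 to 721 TPM in 9mTSCmKO and 323 to 681 TPM in 9mTSCmKO+RM. Summed macrophage markers were at 48.2 to 145 TPM, 13.7 to 44.5 TPM, 58.0 to 101 TPM and 33.4 to 63.4 TPM in the same order. Fibroblast markers were also lower in 9mTSCmKO than in 9mCON, 6 of 8 with 0 higher (median -0.86) beside 37.9% of all tested genes called, whereas in 9mTSCmKO+RM against 9mTSCmKO, where Vim fell as well, 0 were called (median -0.19) beside 32.6%. Of the macrophage markers 1 was lower and 0 higher in that comparison (median -0.61), and 1 was higher and 0 lower in 9mTSCmKO against 9mCON (median -0.38). Endothelial (3 of 7) and smooth muscle or pericyte (4 of 8) markers were lower in 9mTSCmKO with 0 higher, 4 of 8 muscle fiber markers were lower (median log2 fold change -0.37), and of 8 satellite cell markers 1 was higher and 1 lower. The first 3 of these shares lie near the 37.9% called over all tested genes and are not read as a change of those markers. Their part in the values of Vim, and of any other member, was not tested.

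**Figure D3:**
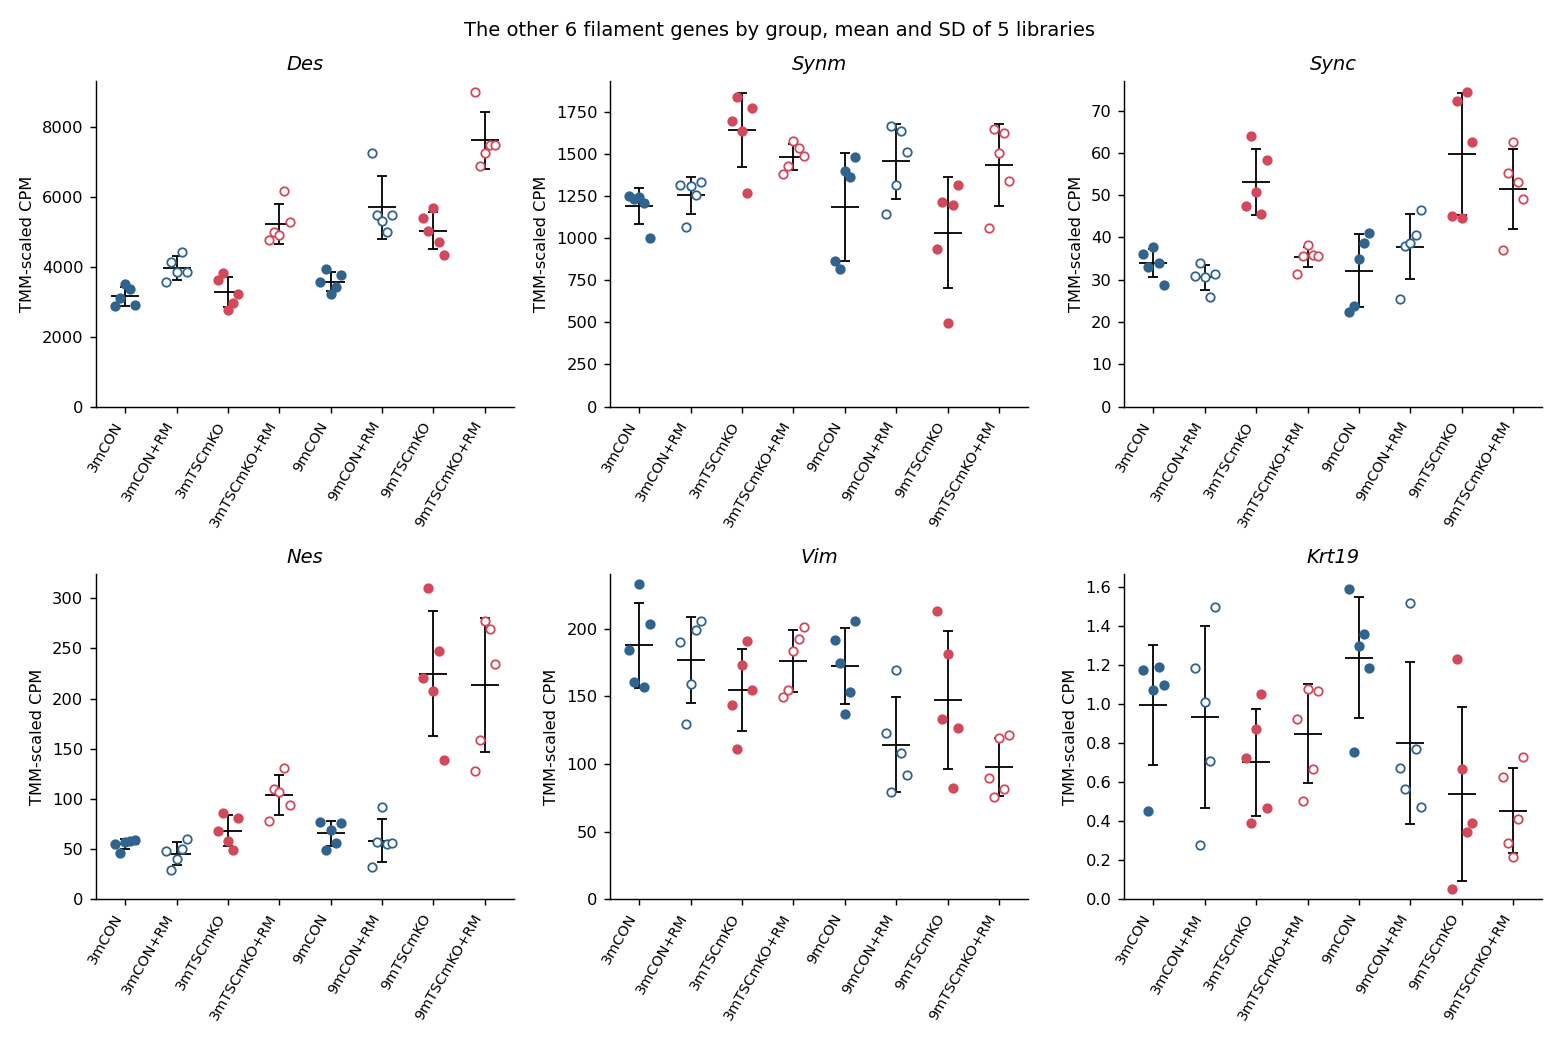
CPM of Krt19, Des, Vim, Nes, Synm and Sync in each of the 40 libraries by group along the x axis, with the mean and SD of 5 libraries as lines, open points for rapamycin and red points for knockouts. Des is highest in 9mTSCmKO+RM at 6877 to 8994 CPM, Nes is high in both 9-month knockout groups, and Sync is high in untreated knockouts at both ages.

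**Figure D4:**
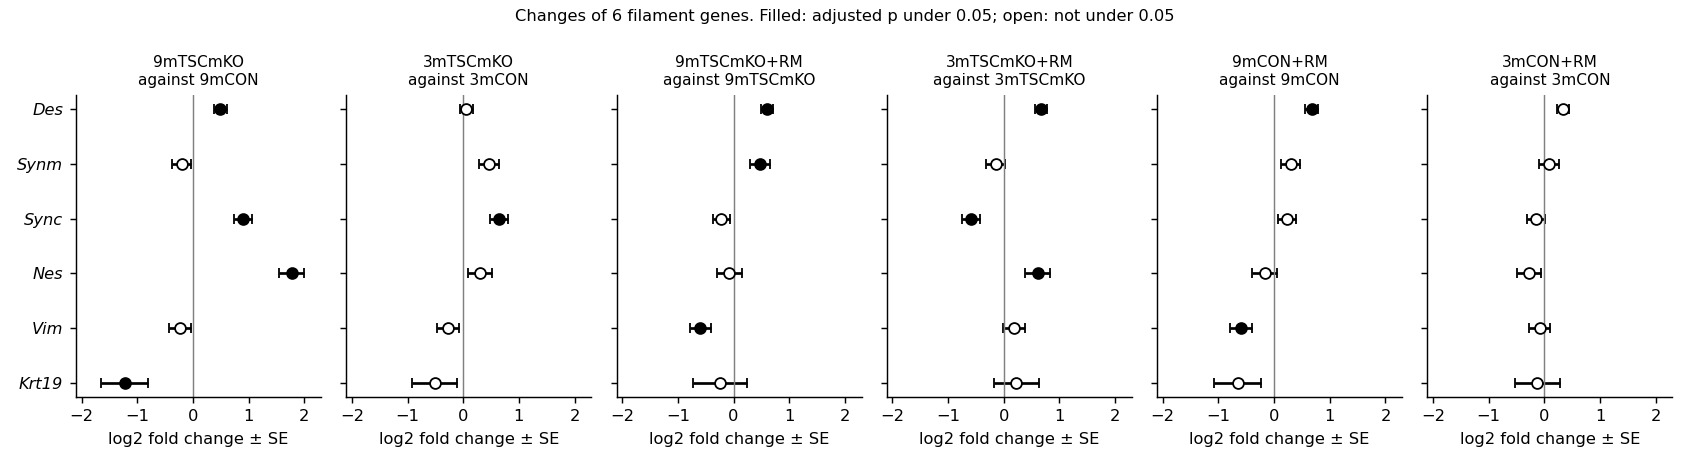
Log2 fold changes of Krt19, Des, Vim, Nes, Synm and Sync with their standard errors in 6 comparisons of groups, filled where the adjusted p was under 0.05. Des lies above 0 in all 4 rapamycin comparisons, and Nes and Sync lie above 0 for the knockout at both ages.

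**Figure D5:**
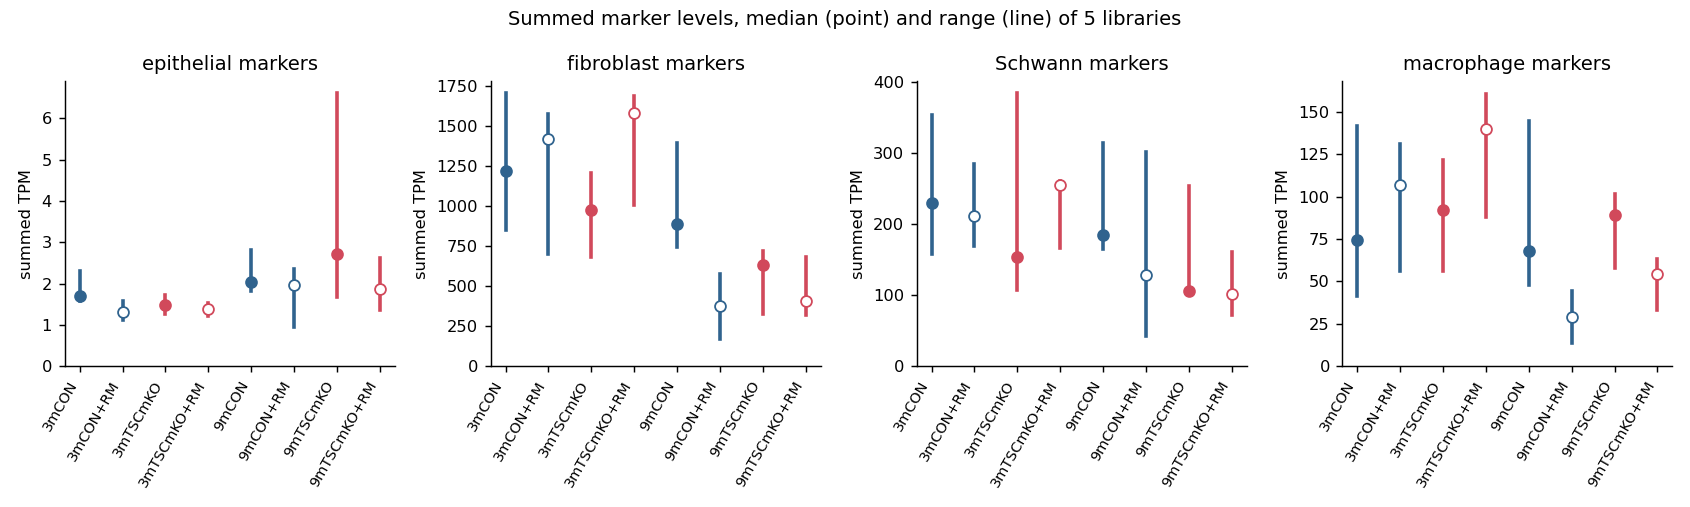
Summed TPM (y axis) of epithelial, fibroblast, Schwann cell and macrophage markers by group, with a point for the median and a line for the range of 5 libraries. Fibroblast markers lie at 744 to 1391 TPM in 9mCON and at 168 to 576 TPM in 9mCON+RM, and epithelial markers lie between 1.37 and 6.62 TPM in 9mCON, 9mTSCmKO and 9mTSCmKO+RM.

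Genes that link, chaperone or resemble these filaments were counted by lists chosen by function. Single genes are named where the list rule gave them or after their values were seen. Among 8 tested linkers of the plakin and desmosome families, 4 were higher and 1 lower in 9mTSCmKO against 9mCON, with a median log2 fold change of 0.35 beside 37.9% called and a median of -0.02 over all tested genes. Those called higher were Pkp2 (1.37, adjusted p = 4.76e-09), Dsg2 (1.04, adjusted p = 0.0152) and Jup (0.72, adjusted p = 0.000285), which encode plakophilin, desmoglein and plakoglobin of desmosomes, and Macf1 (0.40, adjusted p = 0.0474), a plakin that crosslinks actin and microtubules. Ppl, the gene of periplakin, was lower (-1.21, adjusted p = 0.00449). Pkp2 was also the 1 linker called at 3 months (0.90, adjusted p = 4.19e-05), beside 19.8% of all tested genes. The Dsg2 values rested on replicate 1 of 9mTSCmKO, at 11.4 CPM, beside at most 3.06 CPM in the other 4 libraries, 1.03 to 3.01 CPM in 9mCON and 1.09 to 2.75 CPM in 9mTSCmKO+RM. Dsg2 was called lower after rapamycin at 9 months (-1.24, adjusted p = 0.00544), but without that library neither this call (-0.46, adjusted p = 0.203) nor the one against 9mCON (0.27, adjusted p = 0.450) was made, and the latter was also not made without replicate 5 of 9mCON (0.88, adjusted p = 0.0525). Macf1 was not called without replicate 1, 2 or 4 of 9mTSCmKO or replicate 2 or 4 of 9mCON, at 0.25 (adjusted p = 0.220) without replicate 2 of 9mTSCmKO. Plec, whose product plectin ties desmin to Z-discs and membranes, differed by -0.33 between genotypes at 9 months (adjusted p = 0.307) but rose with rapamycin in knockouts of both ages, by 0.84 in the older (adjusted p = 0.00847) and by 0.73 in the young (adjusted p = 0.0291). The call in the young was not made without replicate 1, 3 or 4 of 3mTSCmKO (0.64, adjusted p = 0.0813, without replicate 4) or replicate 2 or 4 of 3mTSCmKO+RM. Dst, another plakin, differed by -0.37 (adjusted p = 0.128). Dsp, the desmosomal plakin that anchors keratins in epithelia, was not tested and never exceeded 0.0874 CPM.

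Of 14 Z-disc and costamere partners of desmin 3 were higher and 6 lower in 9mTSCmKO (median -0.12), beside 37.9% of all tested genes called. Cryab, the small heat shock protein that binds desmin, rose (1.014, adjusted p = 8.05e-05) and fell with rapamycin (-0.60, adjusted p = 0.0159), the opposite direction to Des, though the fall was not called without replicate 3 of 9mTSCmKO (-0.34, adjusted p = 0.148). The other 2 that rose were Flnc, the muscle filamin (0.89, adjusted p = 0.00982), and Tln1, the gene of talin (0.45, adjusted p = 0.0168). Neb, Ank1, Dmd, Sptb, Vcl and Myoz1 were lower, from -1.57 for Neb (adjusted p = 0.000633), which encodes the thin-filament protein nebulin, to -0.44 for Vcl (adjusted p = 0.0342), the gene of vinculin. Several of these calls were lost without 1 library. Dmd (-0.44, adjusted p = 0.136) and Sptb (-0.38, adjusted p = 0.209) were not called without replicate 5 of 9mCON, nor without replicate 1 or 3 of 9mTSCmKO. Vcl was not called without replicate 3, 4 or 5 of 9mCON or replicate 1, 3 or 5 of 9mTSCmKO, with an adjusted p of up to 0.215 (-0.28 without replicate 5 of 9mCON). Tln1 was not called without replicate 2 of 9mTSCmKO (0.33, adjusted p = 0.0832). Myoz1 differed by -0.60 (adjusted p = 0.00363), and Dtna, which encodes dystrobrevin, a partner of syncoilin, differed by -0.05 (adjusted p = 0.725). With rapamycin 6 of the 14 were higher and 1 lower in the 9-month knockout (median 0.21) and 4 higher and 2 lower in the young one (median 0.27), beside 32.6% and 23.6% of all tested genes called. Neb, higher in the young one, was not called without replicate 1, 3, 4 or 5 of 3mTSCmKO (0.88, adjusted p = 0.0926, without replicate 4) or replicate 3 or 4 of 3mTSCmKO+RM. Myot, the gene of the Z-disc protein myotilin, was higher after rapamycin in knockouts of both ages, by 1.07 (adjusted p = 1.20e-08) and 0.92 (adjusted p = 2.76e-07), as was Flnc, by 0.98 in the older (adjusted p = 0.00610) and by 1.37 in the young (adjusted p = 0.000286). In controls 2 of the 14 were higher and 0 lower at 9 months, beside 11.8% of all tested genes called. Sptb, among these, was not called, for example, without replicate 1 of 9mCON (0.57, adjusted p = 0.147). At 3 months 0 were called, beside 0.679%. Mean Myot was 1611 CPM in 9mCON and 2232 CPM in 9mCON+RM. The rapamycin by genotype terms called 1 of the 14 at each age, beside 4.87% and 3.45%.

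Of 13 chaperones and proteases that act on filaments 6 were higher and 2 lower in the knockout at 9 months (median 0.35), beside 37.9% of all tested genes called, and 7 higher and 2 lower at 3 months (median 0.40), beside 19.8%. After rapamycin in the knockouts 2 were higher and 5 lower at 9 months, beside 32.6%, and 1 higher and 4 lower at 3 months, beside 23.6%. The small heat shock protein gene Hspb1 (1.99, adjusted p = 2.80e-08), the co-chaperone gene Bag3 (1.43, adjusted p = 9.25e-12) and Dnajb6 (0.98, adjusted p = 7.27e-11) had the largest rises at 9 months, and Capn1 and Capn3, which encode calpain proteases, were lower (-0.64 and -0.68, adjusted p = 9.64e-07 and 1.63e-06). Hspb8, a chaperone that works with Bag3, rose by 0.68 (adjusted p = 3.60e-05) and 0.40 (adjusted p = 0.0187). Trim63, the gene of the ubiquitin ligase MuRF1, rose by 0.77 (adjusted p = 0.0164) and 1.55 (adjusted p = 2.24e-05), and fell with rapamycin by 0.87 (adjusted p = 0.00882) and 1.84 (adjusted p = 1.51e-06), at 9 and 3 months. Without replicate 2 of 3mTSCmKO the rise of Hspb8 at 3 months was not called (0.29, adjusted p = 0.105), and that of Trim63 at 9 months was not called without replicate 2 of 9mTSCmKO (0.54, adjusted p = 0.0937) or replicate 1 or 2 of 9mCON. Hspb1, the 1 gene higher after rapamycin at 3 months, was not called without replicate 4 of 3mTSCmKO+RM (0.61, adjusted p = 0.0679). Vcp, counted lower after rapamycin at both ages, lost its call in several such fits, with an adjusted p of up to 0.0992 at 9 months and 0.134 at 3 months. So did Capn1, counted lower in the knockout at 3 months (up to 0.0817). Hspa8, the abundant constitutive chaperone, differed by -0.17 at 9 months (adjusted p = 0.362) and was lower at 3 months (-0.38, adjusted p = 0.0490), though not without replicate 2, 4 or 5 of 3mCON or replicate 1, 2, 3 or 5 of 3mTSCmKO, with an adjusted p of up to 0.153 (-0.31 without replicate 5 of 3mCON). Among 10 nuclear lamins and lamin partners 2 were higher and 3 lower at 9 months (median -0.11), near the 37.9% called over all tested genes. Lmna, the A-type lamin gene, rose from 55.8 to 115 CPM (1.04, adjusted p = 4.32e-09) and by 0.44 at 3 months (adjusted p = 0.00574), Lmnb1 differed by -0.06 (adjusted p = 0.824), and Emd and Sun2, of the nuclear envelope, were lower by -0.30 (adjusted p = 0.0331) and -0.45 (adjusted p = 0.00306). Emd was not called without replicate 2 or 3 of 9mCON or replicate 1 or 3 of 9mTSCmKO (-0.22, adjusted p = 0.140, without replicate 1 of 9mTSCmKO).

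Of 10 other cytoplasmic filament genes, mostly of neurons, glia and lens, 4 were tested, and 1 was higher in 9mTSCmKO, beside 37.9% of all tested genes called. This was Nefm, the medium neurofilament chain, named after its value was seen, with a log2 fold change of 3.34 (adjusted p = 2.29e-11), from a mean of 0.381 CPM in 9mCON to 3.98 CPM, and it was lower after rapamycin (-0.98, adjusted p = 0.00295). Iffo1 and Iffo2, the most abundant of this list, differed by 0.27 (adjusted p = 0.103) and 0.11 (adjusted p = 0.685).

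Genes whose profile over the 40 libraries lay closest to each member were ranked by Pearson r of log2(CPM + 0.5) among genes with a mean of at least 1 CPM. The points share groups, depth and library preparation, so r describes these libraries and carries no test. Krt8 lay closest to Prr32 (r = 0.969), Uchl1 (0.962) and Map7d2 (0.962), and its r with Krt18 was 0.819. For Krt18 the closest were Mvp (0.944), Tcfl5 (0.938) and Zfp365 (0.928). Nes lay closest to Lmna (0.933), Mvp (0.925) and Krt18 (0.918). The r of Krt18 was thus higher with Nes than with its filament partner Krt8 (0.819). Values that chose the keratin pair enter both r, and in most libraries Krt8 lay below the added 0.5 CPM. Nothing is therefore read from the order of these r.

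The profile of Des was most like Psmd4 (0.935), a subunit of the proteasome, Hgs (0.918) and Dctn2 (0.915). Sync was most like Nfe2l1 (0.906), Golga3 (0.885) and Cbfa2t2 (0.884). Synm was most like Cmya5 (0.891), which encodes myospryn, a desmin-binding protein, Kif13a (0.885) and Tex2 (0.878). Vim lay closest to Pea15a (0.874), Anxa1 (0.867) and Nov (0.862), and Krt19, with the lowest r of the 8 members, to Ugt8a (0.782) and Dhh (0.766), genes of myelinating glia, and Cldn1 (0.744).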

How the data were processed

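Poly(A) RNA of whole EDL was sequenced by the authors as directional single-end reads of 50 nt. Adapters were trimmed with Cutadapt 1.9.1 and reads assigned strand-specifically with kallisto 0.43.1 to GRCm38 transcripts of Ensembl release 92 with support level 1 to 3. A read on several transcripts was divided equally among them. The deposited tables hold estimated counts summed per gene, which were whole numbers here, and the TPM that the authors derived from them. The tables list 22844 genes, their columns were matched to samples by the titles, and 0 columns remained without a sample.

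From the counts, edgeR 4.0.16 (R 4.3.3) fitted 8 group means to all 40 libraries with TMM scaling and robust quasi-likelihood F-tests on the 13543 genes that reached 1 CPM in 5 libraries, to which 99.8% or more of each library's counts belonged. Two-sided p-values were adjusted by the Benjamini-Hochberg method over all tested genes, with a threshold of 0.05, in 13 contrasts. Standard errors were derived from the F-statistics. The steps were tested on simulated counts. Alternatives were DESeq2 1.42.0, limma 3.58.1 on log2(TPM + 1) and log2(TPM + 0.1), other scaling, no filter, the compared groups alone, insert size as a term, a replicate block and leaving out each library.

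The members, the gene lists and the marker lists were chosen with earlier results of these data known. Genes named by rule were the 8 members, the tested keratins, the 2 genes of highest TPM of each list, Plec, Dsp, Cryab, Dtna, Lmna and Lmnb1. The 3 genes with the most similar profile to each member were also named by rule. Other genes, among them those around the keratin pair and most called genes of the lists, were named after their values were seen. Of the genes of highest TPM, those of the marker lists are given only as part of their list. Epcam, Cldn3, Cldn4, Cldn5 and Eppk1 were not analysed here. Counting intervals and floors (3 counts) cover counting error only. The labels give 4 mg per kg rapamycin and the study text a higher dose, so that the dose is uncertain.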

Additional observations from a re-analysis of the deposited data

Results flagged for a closer look

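In 7 of 59 combinations of a gene and a group of 5 libraries, 1 library stood apart from the other 4 by Dixon's criterion, in which the gap to the nearest library exceeds 0.71 of the group's range. Chance gives this in about 1 of 20 groups. Krt8 in 9mTSCmKO was highest in replicate 3, at 35.0 CPM against 13.5 CPM in the nearest library (0.874 of the range). Without that library the Krt8 mean was 12.3 ± 1.37 CPM (n = 4). Krt19 was lowest in replicate 2 of 3mCON, at 0.454 CPM beside 1.07 CPM (0.842), and highest in replicate 3 of 9mCON+RM, at 1.52 CPM beside 0.773 CPM (0.712). Des was highest in replicate 1 of both rapamycin-treated 9-month groups, at 7256 CPM beside 5474 CPM in 9mCON+RM (0.782) and at 8994 CPM beside 7480 CPM in 9mTSCmKO+RM (0.715). Synm was lowest in replicate 5 of 3mCON, at 999.9 CPM beside 1210 CPM (0.832), and in replicate 2 of 3mCON+RM, at 1065 CPM beside 1258 CPM (0.724).

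The effect of the knockout on Nes differed between the ages, by a genotype by age term of 1.48 on the log2 scale (SE 0.314, edgeR adjusted p = 0.00371). It was 1.78 at 9 months and 0.30 at 3 months.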

How the results depend on the processing

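Of 61 member values given, 34 were called, and 27 of these kept their call in every alternative. Among the 27 are calls of Krt8 and Krt18 in comparisons with 9mTSCmKO or 9mTSCmKO+RM, which the choice of these genes fixed. Nothing is read from those calls, here or in the counts below. In 7 the call was lost in an alternative and in 5 without 1 library. The number of members called in 3mTSCmKO against 3mCON was 1, but 3 with the compared groups alone or with DESeq2, 2 with limma at pseudocount 0.1, and 1 to 2 without 1 library. In 9mTSCmKO+RM against 9mTSCmKO it was 4, but 2 with the compared groups alone or limma, and 2 to 4 without 1 library. In 3mTSCmKO+RM against 3mTSCmKO it was 4, but 2 with limma, 3 without the filter or with insert size as a term, and 3 to 4 without 1 library. In 9mCON+RM against 9mCON it was 2, but 1 without the filter or with the compared groups alone, and 1 to 2 without 1 library. The genotype by age term called 2, but 4 with DESeq2 or limma. The rapamycin by genotype terms called 0, but 1 with limma at 9 months and 2 with the compared groups alone at 3 months. The cause was not tested.

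The 10 changes of sign all concerned values that were not called. Without 1 library the log2 difference ran from -0.0042 to 0.12 for Des in 3mTSCmKO against 3mCON, from -0.47 to 0.089 for Krt18 and -0.22 to 0.064 for Nes in 9mTSCmKO+RM against 9mTSCmKO, from -0.39 to 0.0019 for Nes in 9mCON+RM against 9mCON, and from -0.0045 to 0.63 for Krt18 in 3mCON+RM against 3mCON. The rapamycin by genotype term of Des at 9 months was 0.024 with limma at either pseudocount and -0.14 to 0.017 without 1 library.

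Replicate numbers did not pair the samples: over 140 pairs of libraries with the same number the correlation of deviations from group means ran from -0.42 to 0.51, and 34 exceeded 0.1. With a replicate block 6 members were called in 9mTSCmKO against 9mCON, among them the keratin pair chosen on that comparison. In 3mTSCmKO+RM against 3mTSCmKO 3 were called, and Nes was at 0.59 (adjusted p = 0.0528). Depth limited Krt8 outside the 9-month knockouts, where most libraries held 0 or 1 count.

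Leaving out each library in turn was added after seeing the data for the other genes of the keratin and filament partner lists. Of their 101 called values in the 6 comparisons of genotype and of rapamycin within an age, 30 lost the call without 1 library, and 0 changed sign.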
